A study of Mus musculus with 3 samples.

Results

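The interleukin 1 (IL-1) family is a set of cytokines, receptors and antagonists that start inflammatory responses in and around the vessel wall. A ligand (IL-1 alpha, IL-1 beta, IL-33 or an IL-36) binds its own receptor chain, which then recruits the shared accessory chain encoded by Il1rap. The paired intracellular TIR domains bind the adaptor Myd88 and signal through IRAK kinases and Traf6 to NF-kB and MAP kinases. Endothelial cells and fibroblasts carry the IL-1 receptor and respond to it with chemokines and adhesion molecules, and IL-33 is kept in the nucleus of barrier cells and released on damage. The 9 genes described here were taken by their symbol in the array annotation. They are the receptors Il1r1, Il1rl1 and Il1rl2, the accessory chain Il1rap, the ligands Il1a, Il1b, Il18 and Il33, and the receptor antagonist Il1rn. They are 9 of the 27745 names in the gene column, which also holds clone and accession names, and had 18 of the 41174 probes, printed on 36 of the 45018 spots of each array. The genes were chosen by family membership with their knockout over wild-type log2 ratios known, so those ratios are given as a description. Calls of member probes in the fit with all arrays are counted beside the share of all probes called. Their counts in other settings are also given, and none of these counts supports anything.

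RNA came from cultured primary cells of FVB/N mice, labelled as mouse aortic endothelial cells. One strain lacked the serine/threonine kinase gene Pim1 (Pim1-/-) and the other was wild type, and both were labelled female and 12 weeks old. RNA was taken 24 hours after seeding. Each of 3 two-colour arrays carried knockout RNA in Cy5 and wild-type RNA in Cy3, with no dye swap, so dye and genotype cannot be told apart. The labels called the arrays biological replicates. They named no separate animals or cultures, so tests measure only the spread between these 3 arrays.

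The probe for the targeted gene Pim1 read −0.97, −1.16 and −0.99 as a log2 ratio of knockout over wild type (mean −1.04, SD 0.10, n = 3, limma adjusted p = 0.00296). The deleted stretch of Pim1 is not stated in the labels, so this probe may lie outside it. Both channels were labelled female, yet Xist exceeded background only with wild-type RNA (168-fold lower in the knockout by channel levels). Y-linked Eif2s3y exceeded background only with knockout RNA (28.1-fold higher by channel levels). Sex and genotype therefore cannot be told apart in any ratio below. Of 14 endothelial markers on the array, 2 of the 4 tested were higher and none lower, where 8.03% of all genes were called higher and 10.3% lower. The summed intensity of the 14, which includes markers at background, ran from 8389 to 11179 in the knockout and from 4297 to 4965 in the wild type. The defining genes Pecam1, Cdh5, Tie1 and Erg were above background on no array in either channel. Over tested probes, ratios correlated at r = 0.905 between arrays 2 and 3, but at 0.681 and 0.699 between array 1 and each of them, so the ratios of tested member probes are given with and without array 1. In bulk RNA, fewer cells of a type and less RNA per cell cannot be told apart.

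Each probe is a designed 60-base oligonucleotide. The probes below are shown because 3 of them cross a splice junction and the other reads the reference transcript of the gene with the largest ratio: the Il1rl1, Il18 and Il1rn probes span 863, 2129 and 1021 bases of the genome (mm8, plus strand), and the Il1rl2 probe is the dimmer of its pair. No bases are marked in capitals.
Il1rl2, chr1:40290353-40290412: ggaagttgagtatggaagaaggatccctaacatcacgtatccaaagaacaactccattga
Il1rl1, chr1:40386043-40386905: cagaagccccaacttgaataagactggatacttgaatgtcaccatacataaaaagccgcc
Il18, chr9:50331595-50333723: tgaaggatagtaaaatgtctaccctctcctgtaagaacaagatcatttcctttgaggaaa
Il1rn, chr2:24169524-24170544: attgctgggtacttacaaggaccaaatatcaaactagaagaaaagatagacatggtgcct

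Of the 18 probes, 12 were well above background in a channel on at least 2 arrays and were tested in the fit over all probes. These 12 covered 7 genes. The other 6 included every probe of Il1a and Il1b. In that fit 4 of the 12 passed as higher in the knockout (Il1r1, both Il1rl2 probes and 1 Il1rap probe) and 1 passed as lower (Il18), where 7.62% of all 25075 tested probes were called higher and 9.52% lower. In either direction 17.1% of all were called. Without replicate 1, 6 member probes were called higher and 4 lower, where 36.6% of all tested probes were called. Without replicate 2, and likewise without replicate 3, 2 were called higher (Il1r1 and the brighter Il1rl2 probe) and none lower (1 at an unadjusted p under 0.05, limma). In those 2 fits 921 and 871 of all tested probes were called, against 4298 with all arrays. Since members were chosen with this contrast known, nothing is read from those counts. The median log2 ratio of the 12 probes was 0.367, against −0.00891 over all tested probes. The same direction on all 3 arrays was seen at 7 of the 12, and at the other 5 array 1 had the opposite sign to arrays 2 and 3, a pattern found at 22.9% of all tested probes.

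**Figure D1:**
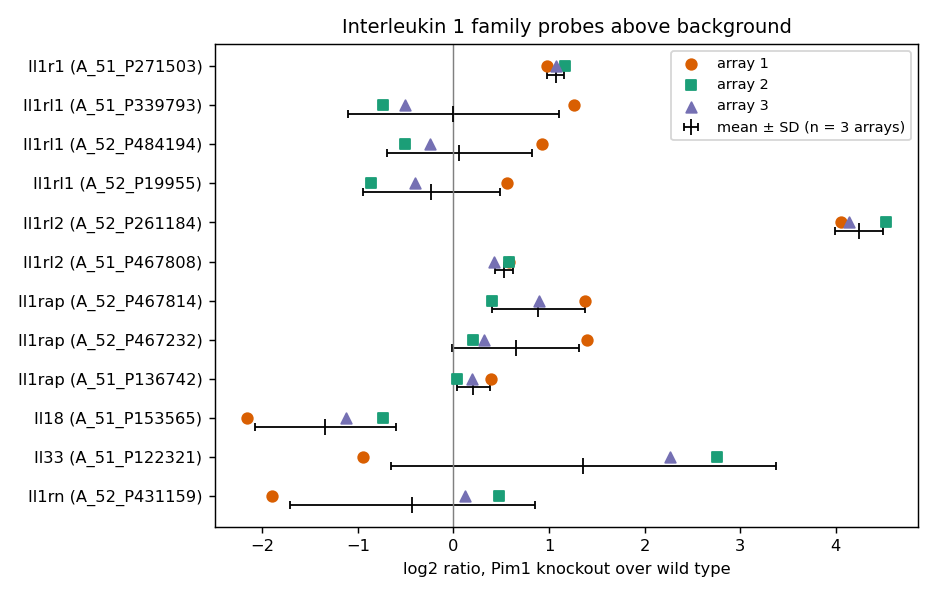
Log2 ratio of Pim1 knockout over wild type (x axis) for the 12 member probes above background (y axis, gene and probe), with 1 symbol per array and the mean ± SD of 3 arrays as a black bar. Il1rl2 lies between 4.05 and 4.53 at its brighter probe, Il1r1 and Il18 keep 1 sign on every array, and Il33, Il1rl1 and Il1rn have array 1 on the other side of 0 from arrays 2 and 3.

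Among the receptors, Il1rl2 differed most between the genotypes, by its brighter probe. It encodes the ligand-binding chain of the IL-36 receptor. Its brighter probe (A_52_P261184, chromosome 1, 40311946 to 40312005 in mm8, designed on a heart cDNA clone) had log2 intensities of 11.31, 11.29 and 11.51 in the knockout channel on arrays 1 to 3. In the wild-type channel it had 7.25, 6.77 and 7.38. The log2 ratio was 4.05, 4.53 and 4.14 on the 3 arrays (mean 4.24, SD 0.25, n = 3), an 18.9-fold higher signal, and the mean without array 1 was 4.33. The scanner software's own ratio gave 5.32 (SD 0.34).

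The other Il1rl2 probe (A_51_P467808, sequence above) was dim. Its knockout signal exceeded background on 3 arrays and its wild-type signal on none, with log2 intensities of 6.73, 6.78 and 6.72 against 6.15, 6.20 and 6.30. By channel levels it read 1.43-fold higher in the knockout, which is no lower limit. Its measured log2 ratio of 0.53 (SD 0.09) became 1.34 with no offset added to the intensities and 3.78 (SD 0.13) in the scanner software's ratio. Without array 1 it was 0.50. This probe entered the test through its knockout signal alone, so its direction is no support for that of the brighter probe. Its mean knockout log2 intensity was 6.75, against 11.37 at the brighter probe. Whether both probes read the same transcript was not tested.

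Il1r1, the signalling receptor for IL-1 alpha and IL-1 beta, was higher in the knockout on every array. Its probe lies on chromosome 1 at 40260368 to 40260427. Knockout log2 intensities were 11.65, 11.04 and 11.23 and wild-type ones 10.66, 9.88 and 10.16. The log2 ratio was 0.98, 1.17 and 1.07 (mean 1.07, SD 0.09, n = 3), 2.10-fold higher in the knockout, and the mean without array 1 was 1.12.

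Il1rap, the accessory chain shared by the IL-1, IL-33 and IL-36 receptors, had 5 probes on chromosome 16. Its brightest probe (A_52_P467814), designed on a cDNA clone, read 1.38, 0.40 and 0.90 (mean 0.89, SD 0.49, n = 3) and was the Il1rap probe that passed. The probe of transcript variant 2 (A_52_P467232) read 1.40, 0.21 and 0.32 (mean 0.65, SD 0.66) and did not pass. The probe of transcript variant 1 (A_51_P136742) read 0.39, 0.04 and 0.19 (mean 0.21, SD 0.17) and did not pass either. All 3 probes were above 0 on each array and highest on array 1. Without array 1 their means were 0.65, 0.27 and 0.12 in the same order. The wild-type signal of the variant 1 probe exceeded background on 1 array only, and its ratio was 1.37 (SD 0.89) in the scanner software. The other Il1rap probes, on brain cDNA clones, were above background nowhere.

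Il1rl1 encodes ST2, the IL-33 receptor, as a long membrane form (transcript variant 1) and a short secreted form that binds IL-33 without signalling (transcript variant 2). A probe designed on variant 2 (A_51_P339793, chromosome 1, 40392470 to 40392529) had log2 intensities of 13.32, 13.47 and 13.36 in the knockout. In the wild type it had 12.07, 14.22 and 13.87. The knockout values thus lay within a 1.11-fold range, and the wild-type values spread over 4.44-fold, with array 1 low. The log2 ratio was 1.26, −0.74 and −0.51 (mean 0, SD 1.10), and the mean without array 1 was −0.63.

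The variant 1 probe of Il1rl1 (A_52_P484194) read 0.93, −0.51 and −0.24 (mean 0.06, SD 0.76, and −0.38 without array 1). The probe across a splice junction (A_52_P19955, sequence above) read 0.56, −0.86 and −0.40 (mean −0.23, SD 0.72, and −0.63 without array 1). The long and the short form thus showed the same order of arrays, and for both the wild-type channel was low on array 1. Its log2 intensity there minus the mean of arrays 2 and 3 was −1.98, −1.53 and −1.92 for the 3 probes. The knockout channel differed by −0.09, −0.22 and −0.74 in the same comparison.

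Among the ligands, Il33 varied most from array to array. IL-33 is an alarmin held in the nucleus of endothelial, epithelial and fibroblastic cells. Its probe (chromosome 19, 30026497 to 30026556) had log2 intensities of 11.77, 12.97 and 12.92 in the knockout channel and 12.72, 10.22 and 10.65 in the wild-type channel. On arrays 2 and 3 the knockout was the higher, on array 1 the wild type was. The log2 ratio was −0.95, 2.76 and 2.27 (mean 1.36, SD 2.01, n = 3), a spread wider than its mean. Without array 1 the mean was 2.51, 5.71-fold higher in the knockout. The wild-type signal on array 1 was 4.88-fold above the mean of the other arrays and the knockout signal 2.26-fold below it.

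Il18, a cytokine stored as an inactive precursor that caspase 1 cleaves, was lower in the knockout. Its probe (sequence above) was printed on 10 spots of each array. Knockout log2 intensities were 7.79, 8.23 and 8.16 and wild-type ones 9.95, 8.97 and 9.28. The log2 ratio was −2.16, −0.74 and −1.12 (mean −1.34, SD 0.74, n = 3), 2.53-fold lower in the knockout. Within an array the 10 spots differed by an SD of only 0.057, 0.072 and 0.067, so nearly all of the spread lay between arrays, not between spots. Without array 1 the mean was −0.93.

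Il1a and Il1b, the classical IL-1 ligands, were above background on no array in either channel. The Il1b probe was printed on 10 spots, and its ratio after normalisation was 0.09, 0.01 and −0.04, which describes background and not a level. These probes give no statement on the cytokines beyond a signal too low to measure.

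Il1rn encodes the secreted and intracellular forms of the receptor antagonist, which occupies Il1r1 without signalling. Its brighter probe (A_52_P431159, chromosome 2, 24172614 to 24172673) had log2 intensities of 6.61, 7.44 and 7.27 in the knockout and 8.51, 6.96 and 7.15 in the wild type. The wild type was the higher on array 1 alone. The log2 ratio was −1.90, 0.48 and 0.12 (mean −0.43, SD 1.28, n = 3), and 0.30 without array 1. The junction probe (A_51_P307166, sequence above) exceeded background on 1 array in the wild type and on none in the knockout, so it was not tested.

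**Figure D2:**
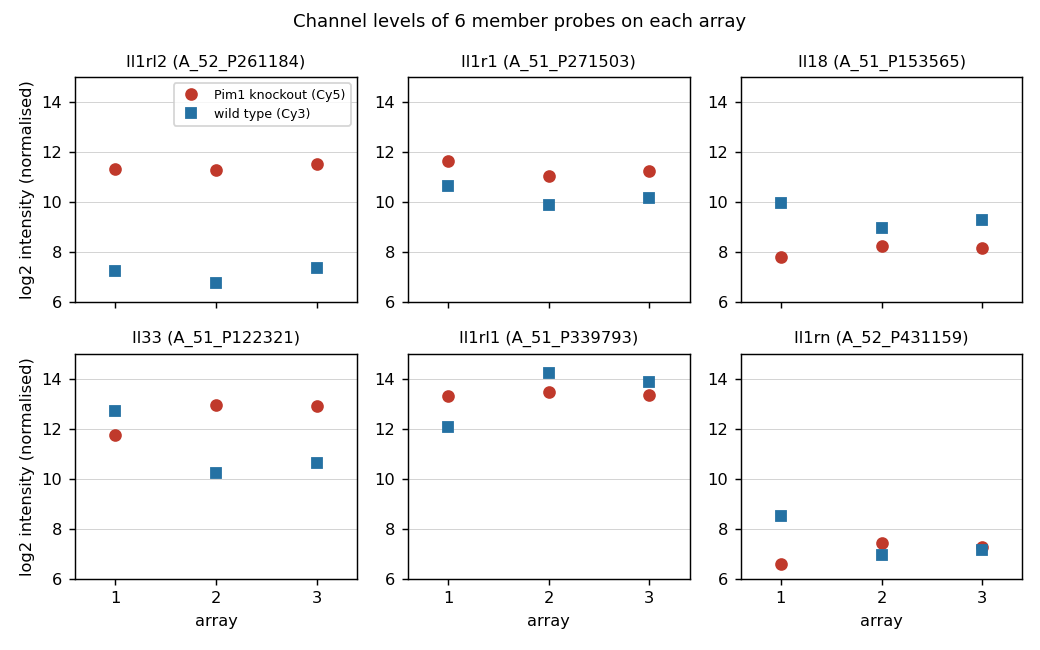
Normalised log2 intensity (y axis) of 6 member probes in the knockout channel (circles) and the wild-type channel (squares) on arrays 1 to 3 (x axis). In the upper row the channels keep their order on every array, whereas in the lower row Il33, Il1rl1 and Il1rn change order on array 1, where the wild-type values 12.72, 12.07 and 8.51 stand apart from those of arrays 2 and 3.

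Over all tested probes, array 1 differed from the mean of arrays 2 and 3 by a median of 0.17 on the log2 scale in each channel. Of the 12 tested member probes, 5 (41.7%) had a wild-type signal on array 1 more than 1 on the log2 scale from the mean of arrays 2 and 3, against 1.26% of all tested probes. These 5 were the Il33 and brighter Il1rn probes, which were high there, and the 3 Il1rl1 probes, which were low. In the knockout channel 1 of the 12 (8.33%), Il33, differed by that much, against 0.499% of all tested probes. The 3 Il1rl1 probes share 1 gene, so these counts hold fewer genes than probes. Of the marker lists, summed wild-type intensities on arrays 1, 2 and 3 were 100951, 82130 and 80924 for 11 mesothelial and epithelial markers, and 5410, 4108 and 4618 for 13 macrophage and leukocyte markers. For 8 smooth muscle and pericyte markers they were 52460, 63449 and 64754, and for 8 mast cell and T cell markers 898, 1142 and 1172. For 14 endothelial markers they were 4297, 4965 and 4945. For 10 fibroblast markers they were 207411, 211954 and 178244, and for 8 keratinocyte markers 1614, 1507 and 1792. Each sum includes markers at background, which still carry intensity after the offset, so low sums are in part background. The part of these cell types in the values of Il33, Il1rn and Il1rl1 was not tested.

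Between the genotypes, the mesothelial and epithelial sum ranged from 80924 to 100951 in the wild type and from 11318 to 14301 in the knockout, 8 of the 10 tested markers fell and none rose, and Epcam was above background nowhere. The macrophage sum ranged from 4108 to 5410 in the wild type and from 2813 to 3175 in the knockout, with 2 of 6 tested markers lower and Adgre1, Itgam, Tyrobp, Laptm5 and Spi1 above background nowhere. The mast cell and T cell sum ranged from 898 to 1172 and from 708 to 748, with Cpa3 and Cd3g above background nowhere and 1 of 6 tested markers lower. Markers at background are part of these sums, so their ratios between genotypes do not measure the size of a change. Of the 6 tested keratinocyte markers none passed (ranges 1507 to 1792 in the wild type and 1398 to 1746 in the knockout). Fibroblast markers ranged from 178244 to 211954 and from 213739 to 241301, with 7 of 9 higher and 1 lower. Smooth muscle and pericyte markers ranged from 52460 to 64754 in the wild type and from 54098 to 57239 in the knockout. Of the 6 tested, 1 was higher and 2 were lower. Over all genes 8.03% were called higher and 10.3% lower, so nothing is read from lists with 1 call or none. The part of these cell types in the lower Il18 and the higher Il1rl2 and Il1r1 was not tested.

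The 5 named genes whose 3 ratios lay nearest to those of the brighter Il1rl2 probe, by Euclidean distance over the 3 arrays among 11442 genes, were Thumpd1 (distance 0.466), Svep1 (0.526), Serpina3g (0.571), Tbx1 (0.988) and Frzb (1.213). Their mean log2 ratios ran from 3.55 to 4.52, with every array above 3, which follows from how they were picked.

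Il1rl2 lies between Il1r1 and Il1rl1 in a run of receptor genes on chromosome 1, so the neighbours were read in order. Map4k4, a kinase gene before the cluster, read 0.87, 0.92 and 0.99 (mean 0.92, limma adjusted p = 0.00357). Il1r2, the decoy receptor of IL-1, exceeded background on 2 arrays in the knockout and on none in the wild type. By channel levels it read 1.2-fold higher, and it did not pass (limma adjusted p = 0.123). Il18r1, the ligand-binding chain for IL-18, was above background nowhere, whereas Il18rap, its accessory chain, fell by 1.21 on the log2 scale (SD 0.28, adjusted p = 0.00481, and 0.0617 without replicate 3). Slc9a2, a sodium/proton exchanger gene past the cluster, fell by 2.90 (SD 0.24, adjusted p = 0.000339), while Mfsd9 (0.27, adjusted p = 0.137) and Tmem182 (0.14, adjusted p = 0.421) did not pass. Neighbouring genes thus differed in size and direction along the cluster.

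**Figure D3:**
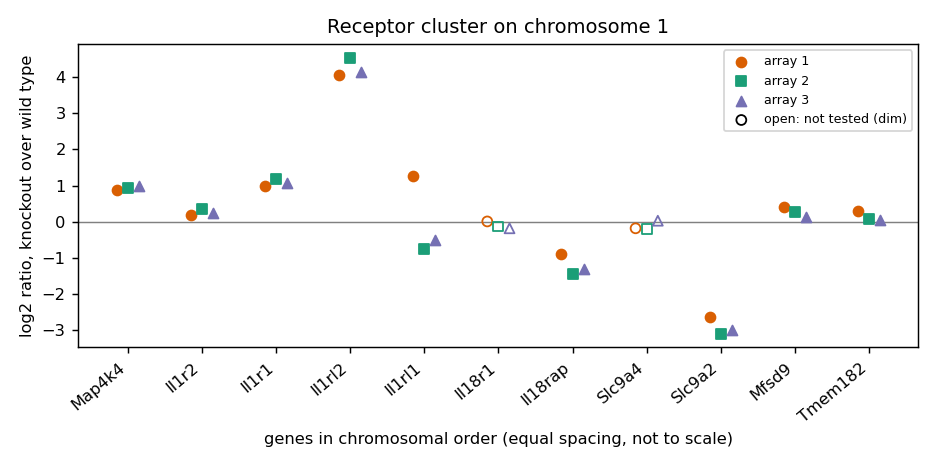
Log2 ratio of knockout over wild type (y axis) on each of 3 arrays for the genes of the receptor cluster in chromosomal order (x axis, equal spacing), each by its brightest tested probe. Il1rl2 stands between 4.05 and 4.53, Slc9a2 has a mean of −2.90, and open symbols mark Il18r1 and Slc9a4, which were above background nowhere.

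The ligand genes on chromosome 2 gave a different view. All 5 of Il1f5, Il1f6, Il1f8, Il1f9 and Il1f10, which encode the IL-36 receptor antagonist, IL-36 alpha, beta and gamma and IL-38, were above background on no array in either channel. A probe named for the IL-36 receptor chain thus gave a clear signal, but no IL-36 ligand probe did. That signal came from the brighter Il1rl2 probe, on a cDNA clone (knockout mean log2 intensity 11.37). The probe on the reference transcript was dim (6.75). Whether the brighter probe reads the transcript that encodes the receptor was not tested. Of the neighbours, Ckap2l (−0.13, adjusted p = 0.425) and Slc20a1 (−0.14, adjusted p = 0.70) did not pass, and Psd4 and Pax8 were above background nowhere.

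Of the 12 other family members on the array, 4 were tested, 1 fell and none rose (2 higher and 1 lower at an unadjusted p under 0.05, limma), against 8.03% of 16328 genes called higher and 10.3% called lower (18.3% in either direction). Without replicate 1, 2 were called higher and 1 lower, where 38.4% of all genes were called. The 1 that fell was Il18rap. Sigirr, a receptor that restrains TIR signalling, read 0.02, 0.98 and 0.58 (mean 0.53, limma adjusted p = 0.123). Without replicate 1 its mean was 0.78, from 2 arrays only. Il18bp, the secreted binder of IL-18, had a ratio of 0.28 (adjusted p = 0.169).

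Genes that process or release the cytokines changed in both directions: of 12 tested, 2 rose (16.7%) and 5 fell (41.7%), where 8.03% and 10.3% of all genes were called, with a median log2 ratio of −0.37 against −0.00802 over all genes. Casp4, the inflammatory caspase that senses cytosolic lipopolysaccharide, rose 4.91-fold (log2 ratio 2.29, SD 0.79, adjusted p = 0.00737). P2rx7, the ATP-gated channel that triggers release of IL-1 beta, rose 3.39-fold (1.76, SD 0.30, adjusted p = 0.00168). Gsdmd, the pore-forming gasdermin, fell by 1.44 (SD 0.49, adjusted p = 0.0089) and Nek7, a partner of the Nlrp3 inflammasome, by 0.66 (SD 0.09, adjusted p = 0.011). The calpain genes Capns1 and Capn2 (calpain cleaves the IL-1 alpha precursor) fell by 0.57 and 0.44 (adjusted p = 0.0309 and 0.0402). Casp8 fell by 0.41 (adjusted p = 0.0386). Casp1, which cleaves IL-1 beta and IL-18, exceeded background on 3 arrays in the wild type and on none in the knockout. By channel levels it read 1.5-fold lower, and it did not pass (limma adjusted p = 0.0868). Without replicate 1, 3 genes of the list were called higher and 7 lower, where 19.4% and 19% of all genes were. With median centring 1 gene of the list was called lower in place of 5. Without replicate 3, 1 was called higher and none lower (5 lower at an unadjusted p under 0.05, limma). Without replicate 2, 1 was called lower. Calls over all tested probes dropped from 4298 to 921 without replicate 2 and to 871 without replicate 3. Without replicate 3 the adjusted p of Casp4 was 0.0729 and that of Gsdmd 0.0712, and Nek7, Capns1 and Capn2 did not pass without replicate 2 or without replicate 3.

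The signal transduction genes were nearly all measured. Of 41 tested, 2 rose and 2 fell (4.88% each), where 8.03% and 10.3% of all genes were called, with a median of −0.07. Nfkbiz, an inducible nuclear IkB protein needed for a subset of IL-1 targets, read 1.26, 1.29 and 1.49 (2.54-fold higher, adjusted p = 0.00143). Map3k8, a kinase that activates the ERK pathway, rose 1.58-fold (adjusted p = 0.0198). Tnfaip3, the ubiquitin-editing brake A20 on NF-kB, fell by 1.04 (SD 0.08, adjusted p = 0.00262). Ikbkg, the regulatory subunit of the IkB kinase, fell by 0.90 (SD 0.01, adjusted p = 0.00352), and it lies on chromosome X. The core steps Myd88 (0.23, adjusted p = 0.218), Irak1 (−0.21, adjusted p = 0.255), Irak4 (0.15, adjusted p = 0.522), Traf6 (−0.13, adjusted p = 0.401) and Nfkbia (−0.13, adjusted p = 0.562) did not pass. Map3k8 did not pass without replicate 2 (adjusted p = 0.136) or without replicate 3 (0.122), and Ikbkg did not pass without replicate 3 (0.0571). Without replicate 1, 8 were called higher and 8 lower, where 19.4% and 19% of all genes were.

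Of 34 tested genes known to be induced by IL-1, 17 rose (50%) and 4 fell (11.8%), where 8.03% and 10.3% of all genes were called, with a median log2 ratio of 0.73. This list was written with some of these changes known, and other stimuli of NF-kB induce the same genes. Saa3, an acute-phase protein, rose 11.2-fold (log2 ratios 4.37, 3.51 and 2.58, adjusted p = 0.00295). The neutrophil chemokine Cxcl5 rose 9.97-fold (2.70, 3.82 and 3.44, adjusted p = 0.000997) and the metalloreductase Steap4 rose 6.76-fold (2.18, 3.35 and 2.73, adjusted p = 0.00189). The adhesion molecule Vcam1 (1.96, SD 0.25, adjusted p = 0.00093) and complement C3 (1.82, SD 0.36, adjusted p = 0.00217) also rose.

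The targets did not move as 1 block. Icam1, an adhesion molecule for leukocytes, fell by 2.31 (log2 ratios −3.08, −1.92 and −1.94, adjusted p = 0.0045), and Selp, Ccl5 and Cxcl10 fell too. Tnf, Csf3, Cxcl2, Nos2 and Mmp9 were above background nowhere. The rise was 17 of 34 with all arrays and 23 without replicate 1, but 6 without replicate 2 and 6 without replicate 3, where calls over all tested probes also dropped from 4298 to 921 and 871. Without replicate 1, 9 targets were called lower in place of 4, where 19.4% of all genes were called higher and 19% lower. With all arrays 7 of 9 tested fibroblast markers rose, where 8.03% of all genes were called higher, and their part in the targets' values was not tested.

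**Figure D4:**
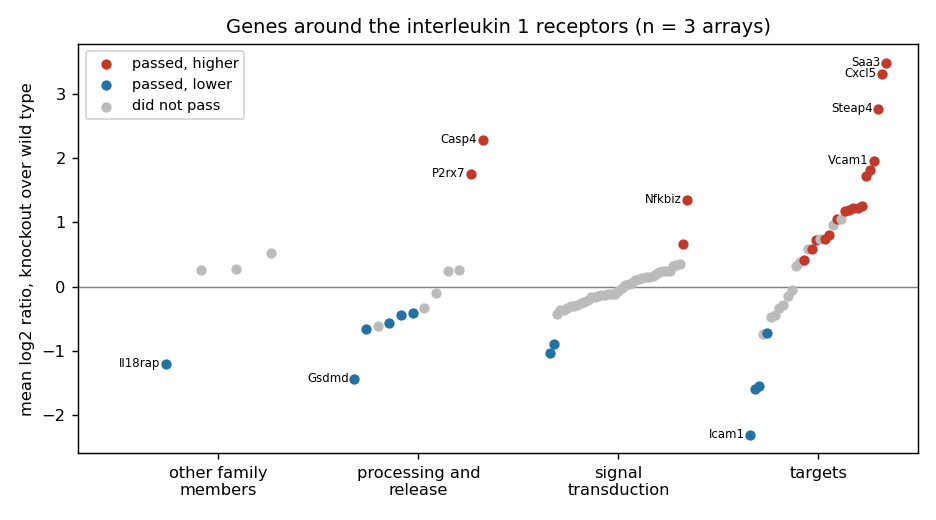
Mean log2 ratio over 3 arrays (y axis) of each tested gene in 4 lists (x axis, genes ranked within a list), coloured by the limma call at an adjusted p under 0.05. Of the 34 targets 17 passed as higher and 4 as lower, and of the 41 signal transduction genes 2 passed in each direction.

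Promoter sequences (RefSeq, GRCm38.p6) were read for the 9 genes, which had 14 start sites in the table, each with 250 bases before and 50 after the start. The motifs searched on both strands were GGGNNNNNCC (a loose NF-kB pattern), TGANTCA (an AP-1 pattern) and TATAAA. The NF-kB pattern was found at 5 of the 14 promoters (of Il1r1, Il1rap and Il1rn), against 50.8% of all 32851 promoters, the AP-1 pattern at 2 (7.81% of all) and TATAAA at 7 (13.6% of all). Promoters of Il1rn overlap, so matches there are shared. One of the 2 Il33 starts is printed because this ligand had the widest spread of ratios, and the Il1rl2 promoter because this receptor had the largest ratio. Capitals mark TATAAA or its reverse complement.
Il33, chr19:29945540-29945839, plus strand: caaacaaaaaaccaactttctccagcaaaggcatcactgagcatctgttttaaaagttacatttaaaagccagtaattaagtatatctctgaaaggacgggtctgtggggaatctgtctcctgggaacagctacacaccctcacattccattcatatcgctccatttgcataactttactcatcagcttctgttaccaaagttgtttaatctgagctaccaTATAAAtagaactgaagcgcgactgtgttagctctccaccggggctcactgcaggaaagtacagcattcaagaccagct
Il1rl2, chr1:40324339-40324638, plus strand: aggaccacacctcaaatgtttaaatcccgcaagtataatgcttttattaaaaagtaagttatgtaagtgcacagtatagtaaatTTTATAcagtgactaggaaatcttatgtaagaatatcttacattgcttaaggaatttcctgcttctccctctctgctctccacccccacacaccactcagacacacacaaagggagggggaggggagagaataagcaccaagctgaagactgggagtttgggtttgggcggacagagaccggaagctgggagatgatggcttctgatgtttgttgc
A match describes letters in the window, and the arrays gave no measurement of promoter use.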

How the data were processed

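Arrays had been read with Agilent Feature Extraction 9.5.3.1, per the submitters' processing notes and the file headers. The deposited files held mean spot intensity and median local background intensity per channel, and the software's log10 ratio of red over green. The deposited value table held the same log10 ratio (largest difference 0, median 0 on each array). From the intensities, background was corrected with normexp (offset 50, which pulls dim ratios towards 0) and log2 ratios were normalised by loess within each array in limma 3.58.1 (R 4.3.3), with 1639 control spots and outlier-flagged spots given no weight. Flagged spots (121, 140 and 136) were left out and spots of a probe averaged. A probe was tested where either channel exceeded background on 2 or more of the 3 arrays (lmFit and eBayes, Benjamini-Hochberg over 25075 probes, threshold 0.05). A probe counted as above background where over 50% of its spots were. Genes were taken by the file's gene symbol and their brightest tested probe, and 260 probes against their gene's strand were left out. Channel levels are log2 intensities after loess and Aquantile. Folds by channel levels are given for probes above background in 1 channel only. For these, values in the other channel under the array's lowest value above background were raised to it. Such folds are no limits and are open to dye bias. All 3 arrays were on 1 slide, scanned on 1 day, with 0 saturated spots, and the share of probes that exceeded background ran from 53.8% to 57.2% for knockout RNA and from 58.4% to 62.5% for wild-type RNA. The fit was also run on simulated data with equal spread on all 3 arrays. That setting leaves out the differences of array 1, so nothing is concluded from it.

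The members and lists were chosen with earlier results of these data known. The genes named were all member probes, Pim1, up to 6 called genes with 1 sign on all arrays from each of 4 pathway lists in order of size, the neighbours of 2 gene clusters, and the 5 genes nearest to Il1rl2. Other genes were named after their values were seen. Errors are SDs over 3 arrays, whose number limits the precision.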

Additional observations from a re-analysis of the deposited data

How the results depend on the processing

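The ratios of member probes moved by less than their SD between arrays in 132 of 142 comparisons with an alternative. The other 10 concerned the Il1rl2 probes, the variant 1 probe of Il1rap and, with median centring, Il1r1 (1.21). Many of the 142 could not have moved further, so the count is no measure of stability. Aquantile scaling, the changed filters and the intensity trend leave ratios as they are. Leaving out 1 of 3 arrays always shifts a mean by less than the SD. No member probe called with all arrays and the main settings changed sign. The ratios of named pathway genes stayed past the threshold in 185 of 204 comparisons and lost it, with the same sign, in 19. Of all calls 44.4% were higher in the knockout with loess and 57.0% with median centring, which called 2 member probes higher in place of 4 and 1 processing gene lower in place of 5. For other family members, 1 gene was called higher with an offset of 0, with no background subtraction, with an intensity trend and with array weights, and 2 with the scanner software's log ratio, in place of none. With no filter on dim probes no member was called lower (limma; 1 at an unadjusted p under 0.05). Array weights called 5 signalling genes higher and 7 lower in place of 2 and 2, and 8 targets lower in place of 4. Leaving out 1 replicate each, counts called higher ranged from 2 to 6 for member probes, 0 to 2 for other family members, 1 to 3 for processing, 1 to 8 for signalling and 6 to 23 for targets, and counts called lower from 0 to 4, 0 to 1, 0 to 7, 1 to 8 and 3 to 9. At an unadjusted p under 0.05 (limma), the counts of 0 stood at 1 for member probes lower, 0 for other family higher, 1 for other family lower and 5 for processing lower. Calls over all tested probes were 9165, 921 and 871 without replicates 1, 2 and 3. The causes of these changes were not tested. Aquantile scaling leaves ratios as they are and changed no count. The slide could not be used as a block, since there was 1. No paired analysis was possible because the arrays form 1 group with no further pairing: the log ratio already pairs the genotypes within each array.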

Other observations

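Several targets that did not pass with all arrays had array 1 opposite in sign to arrays 2 and 3, as Il33, Il1rl1 and Il1rn did. The 3 given here were picked out after their values were seen. Mmp3, a stromelysin, read −1.25, 2.20 and 2.22, with array 1 low as for Il33. Csf1, a macrophage growth factor, read 0.70, −1.13 and −0.88, and Plaur, the urokinase receptor, read 0.29, −1.22 and −1.30, with array 1 high as for Il1rl1. Without replicate 1 their mean ratios were 2.21, −1.01 and −1.26.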
